A study of Mus musculus with 7 samples.

Results

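The vascular endothelial growth factor (VEGF) genes of the mouse thyroid and of thyroid follicular cell organoids (TFCOs) are described here, with the gene of the protein that closes endothelial fenestrae. The members were chosen by name and are 10 of the 30879 genes in the table. They are the ligands Vegfa, Vegfb, Vegfc and Pgf, the receptors Flt1, Kdr and Flt4, the co-receptors Nrp1 and Nrp2, and Plvap. Single cells were sorted as live (DAPI-negative) cells into 384-well plates and sequenced from the 3' end of the transcript with unique molecular identifiers (UMIs). All samples were labelled wild type, C57BL/6 and thyroid, and no allele separates them. Forskolin and a TGF-beta inhibitor were in the TFCO medium, as given below, and do separate TFCOs from tissue. The groups were thyroid tissue (n = 2), late passage TFCOs (n = 3) and early passage TFCOs (n = 2). TFCOs grow from dissociated thyroid follicular cells (TFCs) in basement membrane extract, and their expansion medium held forskolin, R-spondin, a TGF-beta inhibitor, EGF and FGF, so culture and origin cannot be told apart in a comparison with tissue. The labels do not say which animals the samples came from, so p values measure only the spread between these samples.

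VEGF ligands are secreted by many cell types and bind receptor tyrosine kinases on endothelial cells. Kdr encodes the main signalling receptor of VEGF-A, Flt1 a receptor that binds VEGF-A, VEGF-B and placental growth factor tightly, and Flt4 the receptor of VEGF-C. Neuropilins bind some forms of these ligands beside the receptors and also bind class 3 semaphorins. The thyroid follicle is wrapped in a dense bed of fenestrated capillaries, and Plvap forms the diaphragms of their fenestrae.

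Of 2590 cells, 2035 held at least 1000 UMIs and were used, 578 from tissue and 1457 from TFCOs. The depth of the whole samples ran from 1406925 to 4703472 UMIs, and tissue was the shallower origin. Among tissue cells 239 were endothelial-like and 95 TFC-like. The mural-like class had 76 cells, the immune-like class 56 and the stromal-like class 21, while 91 tissue cells got no name. Only 6 of the stromal-like cells came from tissue replicate 2 and 15 from replicate 1, so stromal-like values of replicate 2 rest on few UMIs. Nearly all TFCO cells (1450 of 1457) were TFC-like. The classes were set without the members. Pecam1 (13.3 UMIs per 10000 in endothelial-like cells) and Emcn (28.9) carried the endothelial label, whereas Egfl7 (0.0225) and Cldn5 (0.216) were nearly absent. Levels below are mean UMIs per 10000 over the cells of a class in a sample, and since each transcript is counted once at its 3' end they carry no length factor. Values are given per gene, so soluble and membrane-bound Flt1 are not told apart here, nor are the splice forms of Vegfa. Tg, the precursor of thyroid hormone and a TFC gene, stood at 19.6 to 25.3 in the 4 other named tissue classes (means of 2 samples), so low levels of any gene outside its own class need that background beside them.

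The first question was which cells of the gland hold the ligands and which the receptors. Of the 10 members, 7 were highest in endothelial-like cells, which is 70% against 15.9% of all genes at 0.1 or more in some class. Vegfa and Pgf were highest in TFC-like cells, and Vegfb in stromal-like cells. With 2 tissue samples these levels are a description with no test.

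Vegfa, the chief angiogenic ligand (chr17:46016993-46032369, minus strand, GRCm38), was at 1.12 and 1.14 in the TFC-like cells of the tissue samples. It was at 0.717 ± 0.155 (SD, n = 2) in stromal-like cells and its mean over samples was 0.0817 or less in the endothelial-like, mural-like and immune-like classes. At least 1 UMI was found in 21.1% of TFC-like cells (median depth 2229 UMIs), in 33.3% of the 21 deeper stromal-like cells (5385 UMIs) and in 3.57% of immune-like cells (6280.5 UMIs). Both TFC-like samples were above both stromal-like ones in mean level. The Vegfa UMIs of tissue replicate 2 were uneven: 2 TFC-like cells of 268847 and 151110 UMIs held 95 and 50 of its 168 Vegfa UMIs. Averaging cells rather than UMIs gives each cell the same weight, and with UMIs summed over cells the 2 samples stood at 1.38 and 3.06.

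Pgf, placental growth factor, was the other ligand of TFC-like cells, at 0.814 and 0.344. It had 28 UMIs there and 5 in the other named classes. No UMI was found in 21 stromal-like or 56 immune-like cells. The 2 TFC-like samples differed widely, yet both were above every sample of the other named classes.

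Vegfc, the lymphatic ligand, was highest in endothelial-like cells at 0.919 and 0.933. These were 124 UMIs in 34 of 239 cells, and 1 cell of tissue replicate 2 held 42 of the 78 in that sample. The same gene reached 0.528 in the 15 stromal-like cells of tissue replicate 1 and was at 0 in the 6 of replicate 2. Vegfb, a ligand of Flt1, was at 0.454 and 0.304 in stromal-like and at 0.352 and 0.140 in mural-like cells. The samples of both classes overlapped, so no order can be given for Vegfb.

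**Figure D1:**
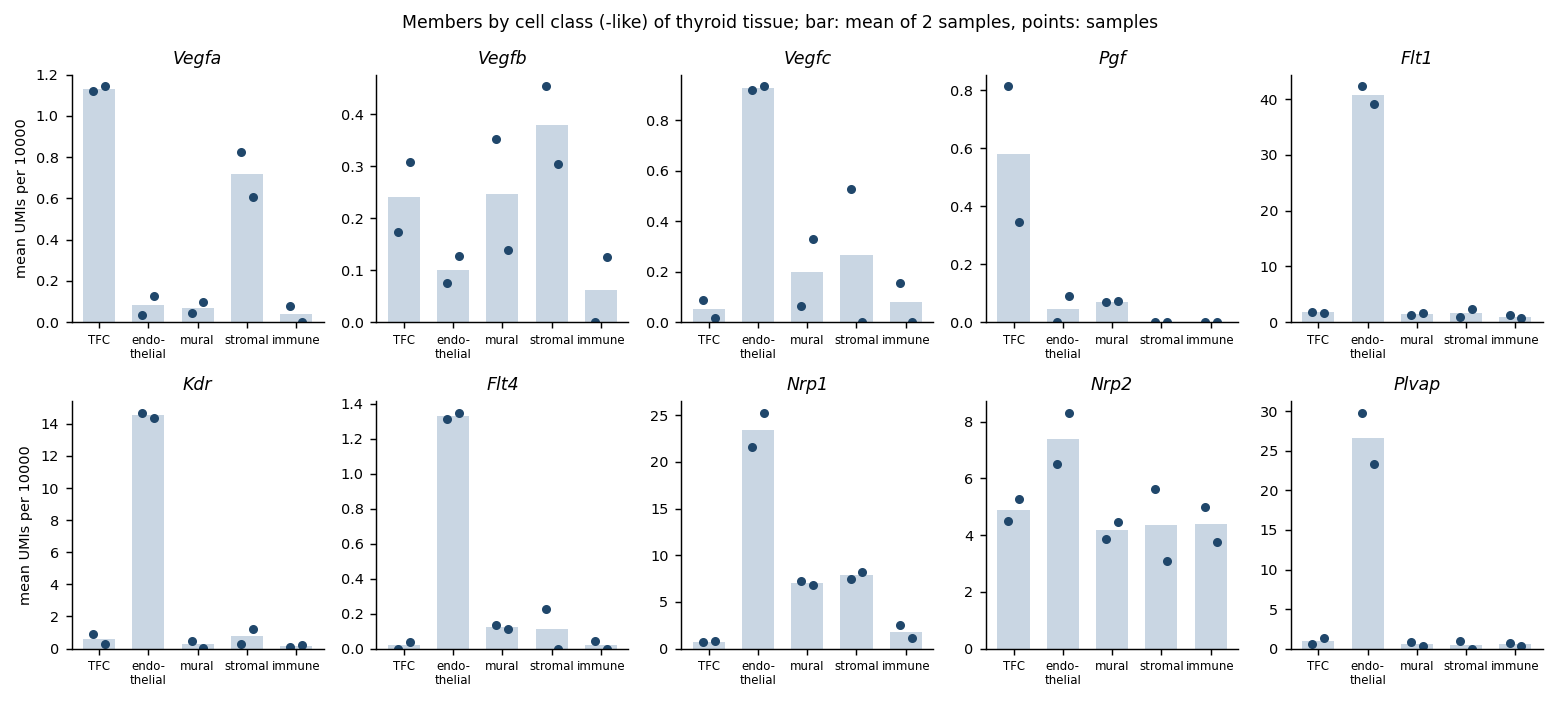
Mean UMIs per 10000 (vertical axis, from 0, a separate scale for each gene) of each member in the 5 classes of tissue cells. Bars are the mean of 2 samples and points the samples. Flt1, Kdr, Flt4 and Plvap stand high in endothelial-like cells only, Nrp1 also in mural-like and stromal-like cells, and Nrp2 in every class. Pgf stands high in TFC-like cells, and Vegfa in TFC-like and, somewhat lower, in stromal-like cells.

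Flt1 was the highest member of all, at 42.3 and 39.1 in endothelial-like cells. It was found in 97.5% of them, against 50.0% of immune-like cells, which were deeper. The next class was TFC-like, at 1.92 and 1.64, so the levels differed 22.9-fold. Kdr was at 14.7 and 14.3 in endothelial-like cells and in 86.6% of them, against 10.7% of immune-like cells. The next class, stromal-like, had 0.297 and 1.22, the second from 4 UMIs in 1 of 6 cells. Flt4 was the lowest receptor, at 1.31 and 1.35 in endothelial-like cells, and was found in 33.9% of them against 1.79% of immune-like cells. In every one of these 3 genes both endothelial-like samples stood above all samples of the other named classes.

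Flt1 (chr5:147561604-147726011) and Kdr (chr5:75932827-75978458) lie on the minus strand of the same chromosome. As they were the receptors with the highest levels, the 120 bases that end 10 bases before their RefSeq starts are shown (GRCm38.p6, minus strand, chr5:147726022-147726141 for Flt1 and chr5:75978466-75978585 for Kdr). Capitals mark GGAA or TTCC, which is the same motif on either strand and the core that ETS factors bind, a family active in endothelial cells. Flt1 holds 4 matches and Kdr 2.

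Flt1: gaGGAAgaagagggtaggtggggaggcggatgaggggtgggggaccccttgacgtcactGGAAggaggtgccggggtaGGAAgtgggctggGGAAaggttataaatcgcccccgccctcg

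Kdr: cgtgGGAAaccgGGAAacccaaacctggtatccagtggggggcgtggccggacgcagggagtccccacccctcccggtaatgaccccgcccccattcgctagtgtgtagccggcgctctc

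Of 32851 promoters in the same table, 73.3% hold at least 1 match in this window, 39.5% hold 2 or more and 16.8% hold 3 or more. The matches are a description of letters. RefSeq promoters were found for 9 of the 10 members. Plvap has no entry.

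The co-receptors were spread more widely. Nrp1 was at 21.6 and 25.3 in endothelial-like cells, at 7.45 and 8.22 in stromal-like cells and at 7.26 and 6.81 in mural-like cells. Endothelial-like samples stood above the others, and the gap between the stromal-like and mural-like samples was small beside it. In TFC-like cells of the tissue Nrp1 was at 0.651 and 0.781. Nrp2 was at 6.49 and 8.32 in endothelial-like cells and between 3.08 and 5.64 in every sample of the other named classes. These overlapped with each other. Nrp2 is also the member that depends most on the well barcode, as given below, and the annotation places Gm37121 on its strand and Gm29083 on the other strand within it.

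Plvap (chr8:71497765-71511752, minus strand) was at 29.9 and 23.4 in endothelial-like cells and in 88.3% of them, against 26.8% of immune-like cells. In the other named classes it lay between 0 and 1.32 in each sample. It overlaps Gtpbp3 on the other strand, and no source used here says if reads were counted by strand.

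Most endothelial-like cells held UMIs of several receptors. Of 239 endothelial-like cells, 226 (94.6%) had a UMI of at least 3 of the 5 receptors and co-receptors, and 61 had all 5. Flt1 and Kdr were both found in 203 cells, 98.1% of the Kdr cells, and Flt1 was also found in 93.8% of the cells without Kdr. Kdr and Plvap were both found in 192. Cells without a Kdr UMI were shallower (median 2783 UMIs) than cells with one (3704), so a missing UMI does not show a missing transcript.

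Low levels of receptors outside endothelial-like cells were set beside the endothelial markers. In TFC-like tissue cells Flt1 stood at 4.53 and 4.20% of its endothelial-like level, Nrp1 at 3.02 and 3.09%, Plvap at 1.93 and 5.63% and Kdr at 6.16 and 1.82%. The sum of the 11 endothelial markers in the table stood there at 5.91 and 6.61% of its endothelial-like level. In mural-like cells the markers stood at 8.38 and 6.86% and Nrp1 at 33.7 and 26.9%. Nrp2 stood at 69.3 and 63.6% in TFC-like cells.

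Genes around the pathway were described by lists. Genes that were also markers of the class (Cd34, Tie1, Esam, Cdh5 and Cldn5) were left out of these counts. Of all genes at 0.1 or more in some class, 15.9% were highest in endothelial-like cells. For the list of genes that VEGF induces in endothelial cells a high count is partly built in. Of its 12 genes at 0.1 or more, 10 were highest in endothelial-like cells. The highest were Igfbp3 (16.1), which binds insulin-like growth factors, Esm1 (11.8), a secreted proteoglycan of tip cells, and Rgcc (6.12). Of the caveolae and junction genes 9 of 10 were highest there, led by Ehd4 (7.58) and Cav1 (4.21). Of the angiopoietin and Tie list 2 of 6 were, and these were Ptprb (10.8), a phosphatase that acts on Tie2, and Tek (9.10), which encodes Tie2. Tek was spread over all classes, at 3.13 to 8.34 in samples of the other named classes, whereas Ptprb was at 0 to 0.661 there. Of the 44 signal transduction genes 14 were highest in endothelial-like cells, among them Hspb1 (6.39), whereas 17 were highest in immune-like cells. The endothelial-like counts were 4 of 13 for regulators of the ligands, 2 of 7 for VEGF-C processing and VEGF-D and 4 of 12 for neuropilin partners. They were 3 of 6 for lymphatic, 4 of 7 for arterial and 3 of 5 for venous genes. Among regulators of the ligands, Epas1, a hypoxia-inducible factor, was at 10.0 in endothelial-like cells. Among the neuropilin partners Sema3c, a ligand of neuropilins, was at 3.97 and 5.22 in TFC-like cells, which overlapped with 4.12 and 4.63 in immune-like and 3.07 and 4.13 in endothelial-like cells.

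The genes whose levels over the 10 class samples were most like each member were taken from 10137 genes at 0.5 or more. Vegfa was most like Scd2, Txndc5 and Tmed3 (Pearson r from 0.975 to 0.941). Flt1 was most like Emcn, Btnl9, Esm1, Irx3 and Cdh5 (0.994 to 0.986), and Kdr like Flt1, Btnl9, Emcn, Jam2 and Jag2 (0.985 to 0.978). Flt4 was most like Plpp1, Chst2, Igfbp3, Sema7a and Nos3 (0.996 to 0.986). Plvap was most like Adgrl4, Mcf2l, Ushbp1, Podxl and Kctd12b (0.992 to 0.987). The 10 points come from 2 libraries and 5 classes, so a gene high in 1 class alone gives a high r.

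The endothelial-like cells formed 2 clusters, and Plvap and Kdr differed most between them among the members at 0.1 or more. Cluster 1 held 159 cells and cluster 4 held 80, from both tissue samples. The clusters had 164 and 113 cells before those in which another marker list scored higher were left unnamed. Plvap was at 36.4 and 30.6 in cluster 1 and at 16.1 and 9.83 in cluster 4. Kdr was at 18.0 in both samples of cluster 1 and at 7.78 and 7.52 in cluster 4. For both genes the samples of the clusters stood apart. Flt1 was close, at 44.8 and 39.3 against 37.1 and 38.7, and Nrp1 was at 21.3 and 22.4 against 22.1 and 30.7. Vegfc was higher in cluster 4 in tissue replicate 1 (1.73 against 0.533) and higher in cluster 1 in replicate 2 (1.41 against 0.0399), so it had no steady direction. In replicate 2, 1 cell held 42 of the 77 Vegfc UMIs of cluster 1.

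Of the 7 members at 0.1 or more on average over the 4 cluster samples, Flt1, Kdr, Flt4 and Plvap were higher in cluster 1 in both samples, and 32.8% of the 12346 genes at that level were. Vegfb was under it and was also higher in cluster 1 in both samples (0.112 and 0.145, against 0 and 0.0923). Cluster 4, taken with all its 113 cells, held none of the endothelial markers among its 10 leading genes against all other tissue cells. Against the other endothelial-like cells it was led by Ccl21a, Cyp2j8, Gm15584, Gm10720 and Morc1, and Ccl21a, a lymphatic chemokine, came from tissue replicate 1 alone. Cluster 1, compared in this second way, was led by Hspa1a, Spry4, Pgrmc1, Bud31 and Rcn2. Cells of cluster 4 were shallower (median 3301.5 and 2293.5 UMIs, against 3805.5 and 4144), and the endothelial markers Cdh5 and Ramp2 were found in smaller shares of them, so the cluster label itself moves with these markers. Cdh5 was found in 57.9 and 26.2% of cluster 4 and in 75.0 and 81.0% of cluster 1. The part of depth in these differences was not tested.

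**Figure D2:**
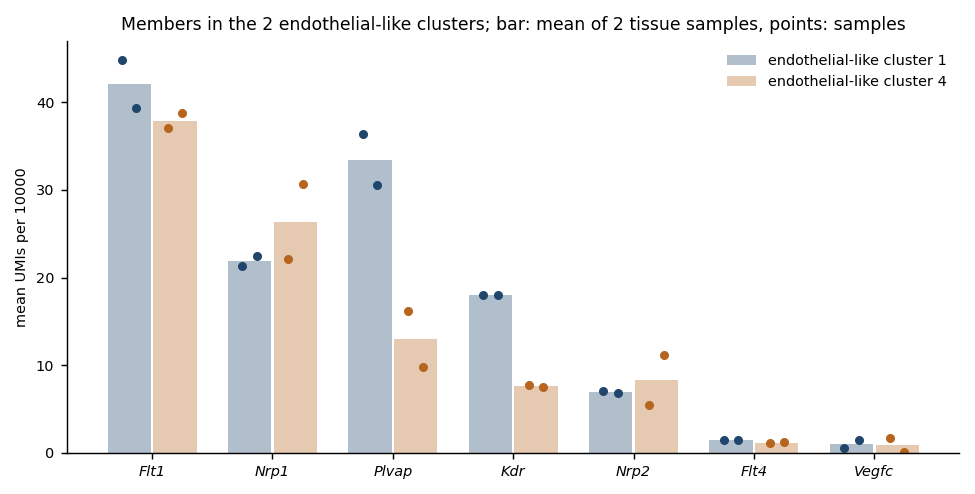
Mean UMIs per 10000 (vertical axis) of 7 members in the 2 endothelial-like clusters. Bars are the mean of 2 tissue samples and points the samples. Plvap and Kdr stand apart between clusters 1 and 4, while Flt1 is near the same level in both and Nrp1 is not lower in cluster 4.

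The second question was whether follicular cells keep their VEGF genes in culture. TFC-like cells of TFCOs were compared with those of tissue in 1 limma fit over the 3 groups. The fit tested 8 members, as Vegfc and Flt4 were under 0.1 on average. Of the 12129 genes tested, 5.92% passed an adjusted p of 0.05, and 2.58% passed it as lower in TFCOs. The members that passed were Plvap, Flt1 and Pgf, all lower in TFCOs.

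Vegfa was at 1.12 and 1.14 in tissue. The late TFCOs had 5.56, 2.49 and 3.09, and the early TFCOs 2.45 and 2.30. All 5 TFCO samples stood above both tissue samples. The log2 difference on the log2(value + 1) scale was 0.88 (SE 0.39), and it did not pass the threshold in limma (adjusted p = 0.169). It passed with equal weights for all samples (adjusted p = 0.0176) and, with 1 tissue sample left and equal weights, without tissue replicate 1 or 2 (0.0476 and 0.0449). Over 18 alternatives the limma adjusted p ran from 0.0176 to 0.744. With UMIs summed over cells the groups overlapped and the difference was 0.32. Such a separation of the groups was found in 45.5% of all genes tested. In tissue 21.3% of the cells had a Vegfa UMI in replicate 1 (exact binomial 95% interval 10.7 to 35.7), and 20.8% did in replicate 2 (10.5 to 35.0). Such cells made up 82.1% (77.3 to 86.2), 82.5% (78.2 to 86.3) and 74.3% (68.3 to 79.7) of the late TFCO samples. Early TFCOs had 71.8% (65.6 to 77.5) and 53.9% (48.2 to 59.6). These intervals cover counting error only. The means were 72.9% ± 11.6 (SD, n = 5) and 21.1% ± 0.313 (SD, n = 2), and a two-sided exact permutation test gave p = 0.0476, which no split of the 21 can go below. The p values of shares are not adjusted. TFCO cells were deeper (median 5130.5 to 12380.5 UMIs, against 2288 and 1980.5). After each cell was thinned to 1000 UMIs the shares were 22.7% ± 8.16 and 6.29% ± 2.88, with the same exact permutation p of 0.0476.

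Pgf went the other way. Against 0.814 and 0.344 in tissue, the late TFCOs had 0.156, 0.0453 and 0.156 and the early ones 0.0524 and 0.0364. On the log2 scale Pgf differed by -0.53 (SE 0.13, limma adjusted p = 0.0311). All TFCO samples stood below both tissue samples. The call was lost with every gene tested (adjusted p = 0.0687), with cells of at least 2000 UMIs (0.113), with thinned cells (0.188) and without early TFCO replicate 1 (0.0670), all by limma. Without tissue replicate 1 the difference was -0.32, in a fit with equal weights. Vegfb was at 0.174 and 0.309 in tissue and between 0.210 and 0.293 in TFCOs, and its difference (log2 0.0078, limma adjusted p = 0.973) had no stable sign. Vegfc was at 0.0880 and 0.0168 in tissue and between 0.103 and 0.144 in TFCOs.

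Flt1 was at 1.92 and 1.64 in tissue TFC-like cells. Late TFCOs had 0.399, 0.557 and 0.395, and early TFCOs 0.773 and 0.672. The groups did not overlap, and Flt1 fell by 0.81 on the log2 scale (SE 0.18, limma adjusted p = 0.0251). The call was lost with cells of at least 2000 UMIs (limma adjusted p = 0.060) and with thinned cells (0.199). The share of cells with a Flt1 UMI differed by -3.66 percentage points (exact permutation p = 0.667). In cells thinned to 1000 UMIs it was 5.61% in TFCOs and 13.7% in tissue, a difference of -8.04 points (exact permutation p = 0.0476). Plvap was at 0.577 and 1.32 in tissue and between 0.0478 and 0.168 in TFCOs, which is -0.80 on the log2 scale (SE 0.15, limma adjusted p = 0.00952). It passed under all 17 alternatives in which it was tested, with log2 differences from -2.31 to -0.52. Without tissue replicate 2 it was -0.52. Kdr was at 0.905 and 0.262 in tissue and between 0.0379 and 0.335 in TFCOs, and the groups overlapped (log2 -0.45, limma adjusted p = 0.143). Tissue replicate 1 decides the Kdr value: the log2 difference was -0.15 without it and -0.74 without replicate 2, both in fits with equal weights. The 11 endothelial markers moved with these genes: their sum was 5.55 and 6.62 per 10000 in the tissue cells and 0.748 to 1.60 in TFCO cells. In tissue 9 and 10 of them were above 0, with Egfl7 at 0 in both samples, and in TFCOs 7 to 10. The summed markers of mural (4.21 and 6.51), stromal (2.86 and 2.12) and immune cells (8.66 and 5.48) were also higher in the tissue cells than in TFCO cells, where the highest sums were 2.15, 0.847 and 0.705. The part of these cells in the lower Flt1, Plvap and Pgf was not tested.

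Nrp1 was at 0.651 and 0.781 in tissue. Late TFCOs had 2.58, 2.80 and 2.35, and early TFCOs 2.76 and 1.82. All TFCO samples stood above both tissue samples. The log2 difference was 0.99 (SE 0.28) and just missed the threshold (limma adjusted p = 0.0510). It passed under 11 of 18 alternatives, whose adjusted p ran from 0.00248 to 0.164. Leaving out late TFCO replicate 1, 2 or 3 or early TFCO replicate 2 gave a limma adjusted p of 0.0416, 0.0384, 0.0494 and 0.0313. Without early TFCO replicate 1 it did not pass. The 11 include the fit with equal weights for all samples and those without tissue replicate 1 or 2, which also used equal weights. With equal weights for all samples 4173 genes passed, against 718 in the main fit, so these fits are not like the weighted ones. An Nrp1 UMI was found in 62.5% ± 13.1 (SD, n = 5) of TFCO cells and in 16.8% ± 5.70 (SD, n = 2) of tissue cells. After thinning the shares were 18.6 and 5.30% (two-sided exact permutation p = 0.0476 before and after).

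Nrp2 was at 4.50 and 5.29 in tissue. Late TFCOs had 2.03, 2.56 and 2.07, and early TFCOs 2.79 and 3.84. All TFCO samples stood below tissue, and the log2 difference of -0.66 (SE 0.33) did not pass (limma adjusted p = 0.204). It passed with equal weights for all samples (limma adjusted p = 0.0230) and in the fit without tissue replicate 1, which also used equal weights. The share of cells with an Nrp2 UMI differed by 15.7 percentage points and, after thinning, by -8.07, so its sign turned with the depth.

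**Figure D3:**
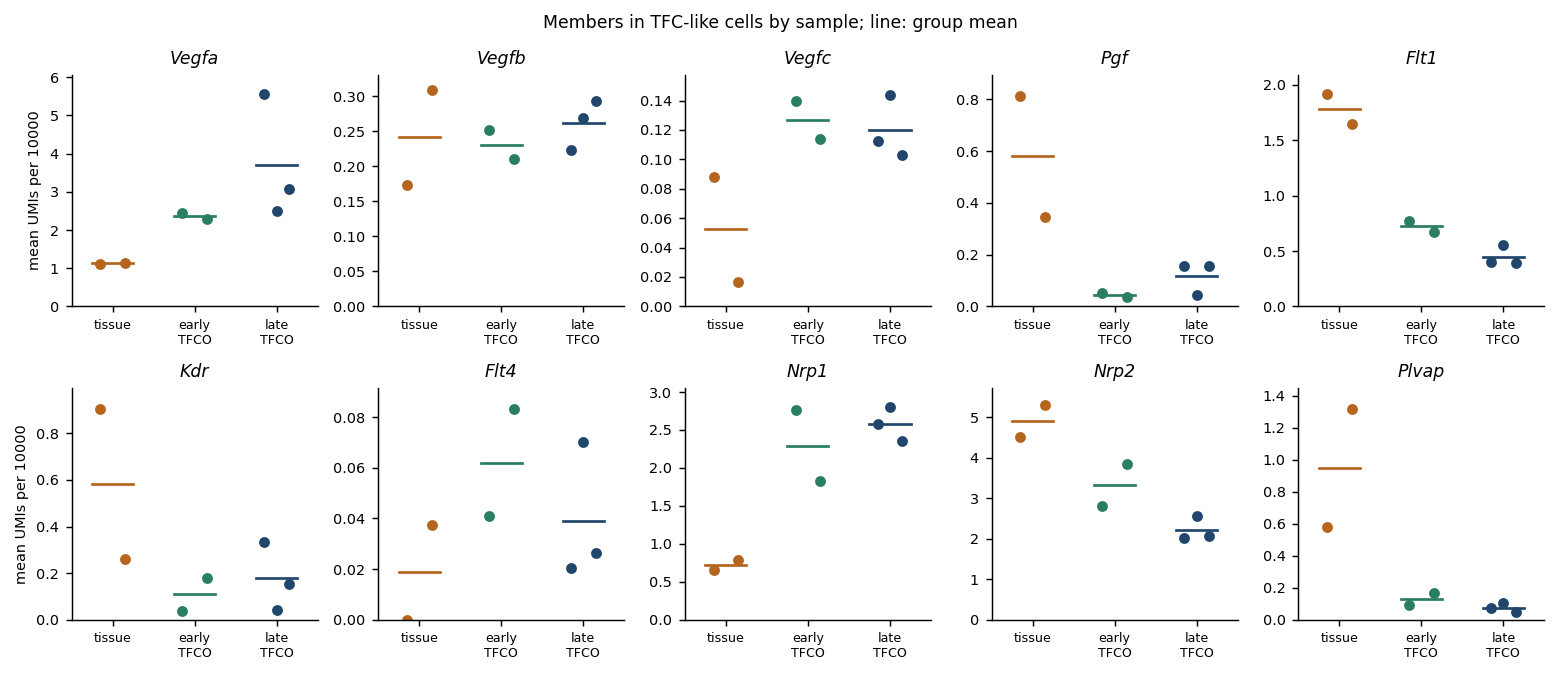
Mean UMIs per 10000 (vertical axis, from 0, a separate scale for each gene) of each member in the TFC-like cells of the 7 samples. Points are samples and lines group means. Vegfa and Nrp1 of all 5 TFCO samples lie above both tissue samples, and Pgf, Flt1, Nrp2 and Plvap below them.

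Genes around the pathway were read from the same fit. Of the signal transduction list 39 genes were tested, 2 were higher in TFCOs and 1 was lower, a share near the 5.92% of all genes. The higher ones were Rac1, a small GTPase (log2 1.04, limma adjusted p = 0.0406), and Pik3r1, a subunit of PI3 kinase (1.00, adjusted p = 0.0467), and the lower one was Hspb1 (-0.40). The list had a median log2 difference of 0.09, against 0.11 for all genes. None of 12 tested regulators of the ligands passed. Rgcc rose (log2 1.28, limma adjusted p = 0.0285) and Rcan1, a calcineurin inhibitor, fell (-0.46, adjusted p = 0.0308) among 3 tested genes that VEGF induces. Cav1 and Ehd2, both of caveolae, and the endothelial receptor Tie1 were lower (-0.49, -0.46 and -0.44). These 3 genes and Hspb1 were highest in endothelial-like cells of the tissue, Tie1 is 1 of the endothelial markers whose sum was lower in TFCO cells, and the part of such cells was not tested. Of 4 arterial genes tested, Sox17 and Hey1 were higher, at 0.916 and 0.451 per 10000 in TFCOs against 0 and 0.00138 in tissue. Gja5 of that list, named after its values were seen, lay on the other side at 0.386 against 0.938 and did not pass (limma adjusted p = 0.0825). Plxna4, a semaphorin receptor subunit, was lower (-0.69).

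The third question was whether the ligands differ with passage. In the same fit no member passed, and 0.0165% of all genes did. At an unadjusted p under 0.05 there were 2323 genes, Flt1 and Nrp2 among them. The 2 genes that passed were Rpsa-ps10 and Rpsa-ps2, ribosomal pseudogenes outside the rule for named genes, given after their values were seen. Vegfa was higher in late TFCOs by 0.43 on the log2 scale (SE 0.23, limma adjusted p = 0.309). The 3 late samples stood above the 2 early ones, but late TFCO replicate 2 (2.49) and early TFCO replicate 1 (2.45) were almost level, and late TFCO replicate 1 (5.56) made most of the gap. Without late TFCO replicate 1 the difference was 0.16 (limma adjusted p = 0.717). A Vegfa UMI was found in 79.6% ± 4.63 (SD, n = 3) of late cells, against 62.8% ± 12.7 (SD, n = 2) of early cells. The two-sided exact permutation p was 0.1, and 10 splits cannot give less. Thinned to 1000 UMIs the shares were 24.5 and 19.9% (exact permutation p = 1). Flt1 and Nrp2 of the late samples stood below the early ones, with log2 differences of -0.25 (limma adjusted p = 0.232) and -0.42 (0.254). Separations like these 3 were found in 39.5% of all genes tested.

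The last question was whether a member's level depends on the well barcode, the short sequence of the primer in each well, from 1 set of 384 used for every plate. TFCO cells that carried the same barcode on separate plates formed 2238 pairs, and a correlation of their log values was computed over these. It was 0.383 for Nrp2, 0.280 for Plvap and 0.101 for Flt1, and 0.0493 or less for the other members. A value above 0.1 was found in 11.2% of 19498 genes. Flt1 was at that edge: without late TFCO replicate 2, late replicate 3 or early replicate 1 it was 0.0954, 0.0903 and 0.0777. Without late TFCO replicate 1 or early replicate 2 it rose to 0.111 and 0.137. In the tissue cells, over 216 pairs, it was 0.290 for Nrp2, 0.0298 for Flt1 and 0.0232 for Plvap, and 17.3% of genes were above 0.1 there. With values set to detected or not in TFCO cells it was 0.217 for Plvap, 0.0371 for Nrp2 and 0.0102 for Flt1, and 5.77% of genes were above 0.1.

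The barcodes with the highest mean level in TFCO cells, among those with at least 3 cells, show where these UMIs sit. They are given as listed in the deposited barcode list, and capitals mark the whole barcode.

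Nrp2, highest: GGTGTTAG

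Nrp2, next: TGGTGAGT

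Nrp2, after that: CCATTTCC

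Nrp2, and: GTGGTGTA

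Plvap, highest: TTTTCGCC

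Plvap, next: TTAGGACG

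Plvap, after that: AGTCTGCC

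Flt1, highest: GCTTTGGA

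All 5 TFCO cells of TGGTGAGT had Nrp2, at 18.6 to 31.0 per 10000, against a median of 1.47 over all TFCO cells. The 5 cells of CCATTTCC had 19.2 to 37.6. GGTGTTAG had 19.0 to 32.1 in 3 TFCO cells and 19.3 and 13.7 in 1 cell of each tissue sample, the first endothelial-like and the other mural-like. Nrp2 in GTGGTGTA reached 57.5 in an endothelial-like tissue cell. Plvap was rare in TFCO cells (143 UMIs), and 5 barcodes with 1.24% of the cells held 29.4% of them. All TFCO cells of TTTTCGCC, TTAGGACG and AGTCTGCC had Plvap, while the TTTTCGCC cell of tissue replicate 1, which was endothelial-like, had none. The Plvap barcodes ranked 4 and 5, not shown, had it in 2 of 4 and 1 of 3 TFCO cells. Flt1 stood at 3.27 to 14.8 in all 5 TFCO cells of GCTTTGGA. The Flt1 barcodes ranked 2 to 5, not shown, had it in 1 of 3, 3 of 4, 3 of 4 and 4 of 4. The top 5 barcodes held 8.98% of Flt1 UMIs and 10.5% of Nrp2 UMIs, in 1.37% of the cells for each. For all 3 genes these barcodes were picked by the same values, so a larger share of UMIs than of cells is built in.

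Of the 4 Nrp2 barcodes shown, 3 hold GGTG, and GTCGATCT, ranked 5 for Nrp2 and not shown, does not. The motif was noticed after the values were seen, was searched on the listed strand only, and is held by 3.39% of the 384 barcodes. Nrp2 was at 7.05 to 17.2 in the TFC-like TFCO cells with such a barcode and at 1.85 to 3.60 in the others, which includes the barcodes in which the motif was noticed. Without the 5 barcodes of the highest Nrp2 mean it was at 2.52 to 7.43 in 2 to 8 cells a sample, and at 1.76 to 3.43 in the others. Among TFC-like tissue cells 0 and 1 had a barcode that holds GGTG, the 1 cell with Nrp2 at 1.13. Without all such barcodes Nrp2 was at 4.50 and 5.38 in tissue, above all TFCO samples. Leaving them out lowered TFCO levels and hardly touched tissue, so this could not turn the order and decides nothing. Endothelial-like levels of the other 2 genes stayed near their values when wells were left out. Leaving out the 283 barcodes that carry Flt1 in TFCO cells left 59 of 239 endothelial-like cells, at 42.4 and 41.6. Leaving out the 66 that carry Plvap left 203, at 29.5 and 21.8, slightly below 29.9 and 23.4. Over all TFCO cells Flt1 averaged 0.558 and Plvap 0.0985, far below these levels. Leaving out such wells could hardly move the endothelial-like levels, so their steadiness decides nothing. The low Flt1 levels of other classes moved both ways. Mural-like cells went from 1.32 and 1.66 to 2.08 and 3.87, with 16 of 76 cells left. Immune-like cells went from 1.23 and 0.674 to 1.18 and 0.126, with 12 of 56 left. TFC-like cells went from 1.92 and 1.64 to 2.49 and 1.61, with 29 of 95 left.

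**Figure D4:**
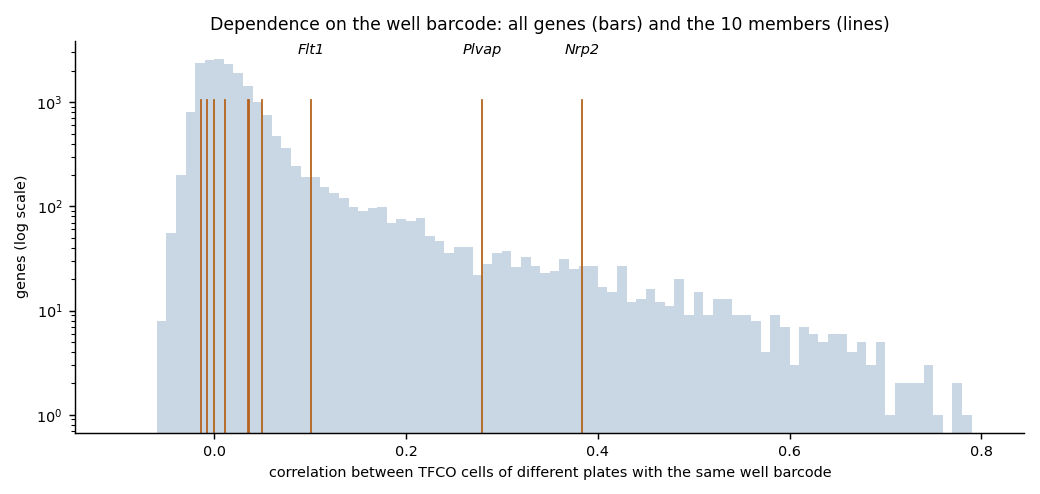
Number of genes (vertical axis, log scale) by their correlation over pairs of TFCO cells that carried the same well barcode on separate plates. Bars are all 19498 genes and lines the 10 members. Nrp2 (0.383) and Plvap (0.280) lie far out, Flt1 (0.101) just beyond 0.1, and the other members within the bulk.

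**Figure D5:**
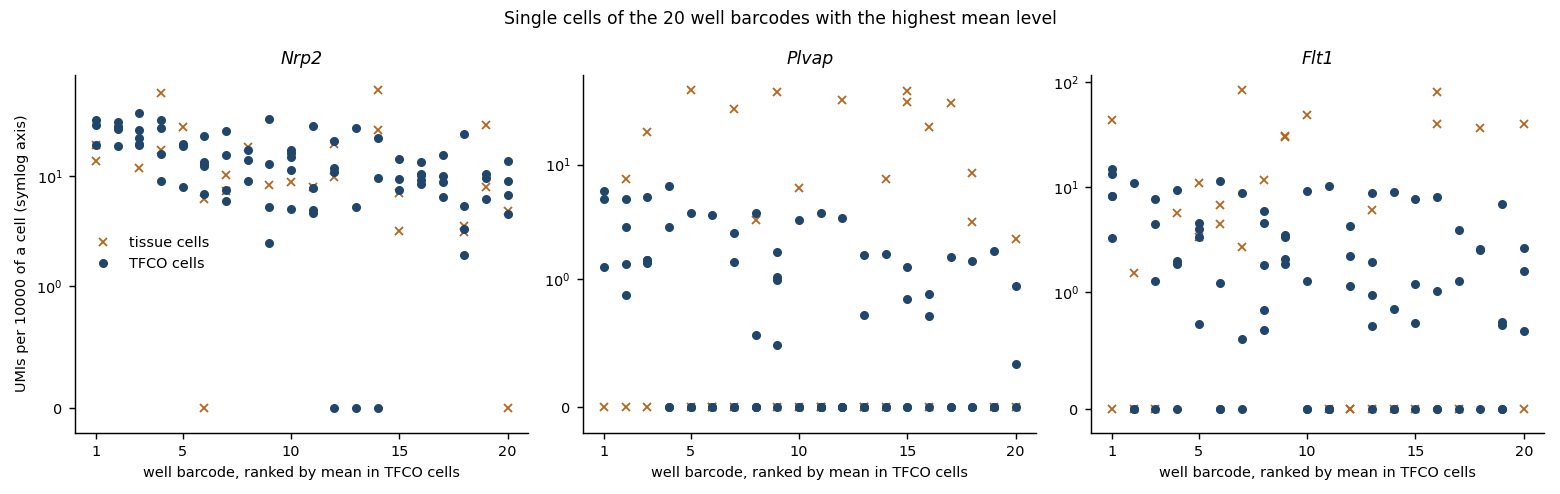
UMIs per 10000 (vertical axis, linear below 1 and logarithmic above) in single cells of the 20 well barcodes with the highest mean in TFCO cells, for Nrp2, Plvap and Flt1. Circles are TFCO cells and crosses tissue cells. The barcodes were ranked by the TFCO values shown, so the fall from left to right is built in, and the cells of the first Nrp2 barcodes all lie near or above 10.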

How the data were processed

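The authors deposited a table of single cells in natural log units, ln(1 + UMIs per 10000), and a list of 384 barcodes. The submitters' processing notes name Trim Galore 0.4.3, STAR 2.5.3a, Seurat and GRCm38. Gene places are from GENCODE and promoters from RefSeq. Whether counting used the strand is not given in the sources used here. UMIs were recovered by dividing each cell by its smallest value after undoing the log, which gave whole numbers (within 0.01) for 100% of values. Every column of cells belonged to 1 of the 7 samples. Cells of at least 1000 UMIs were kept, and the total depth per sample limits how rare a transcript can be seen. No doublet caller was run, as cells were sorted 1 to a well.

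Tissue and TFCO cells were clustered separately with scanpy 1.11.5 (2000 variable genes, 30 components, 15 neighbours, Leiden resolution 1, igraph 0.11.9), without members, genes with a barcode correlation above 0.05, erythroid markers and genes that code for no protein. A cluster was named after the marker list with the highest mean if at least 3 of its markers were found in 10% of the cells and no other list had at least 2 more markers among its 10 leading genes, unless its median depth was under 33.3% of the sample median and none of its markers was there. Cells whose own list did not score highest were left unnamed. These clustering rules were set after clusters had been seen. Members, lists and tests were chosen with earlier results of these data known.

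Per 10000 means over TFC-like cells were tested on log2(value + 1) with limma 3.58.1 in R 4.3.3 (trended, 1 weight for tissue and 1 for TFCO samples, genes at 0.1 or more over group means, Benjamini-Hochberg over all genes tested). Shares were compared by exact two-sided permutation tests over samples. The fits were tested on simulated data. With 1 sample of a group left out, fits pool the spread over groups, and those with a single tissue sample used equal weights. Alternatives without the 2 deepest cells of tissue replicate 2, and endothelial-like clusters without 1 sample, were chosen after seeing the data. Named genes were the 10 members, up to 4 genes of each list with the largest difference past the threshold or the highest class level, the 5 genes most like Vegfa, Kdr, Flt1, Flt4 and Plvap, and the 5 leading genes of each endothelial-like cluster. For Vegfa only the first 3 are given, as 1 result is not reported here. Replicate numbers only name samples. The series text gives 2 biological replicates, which differs from the 3 late samples, and all were used as labelled.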

Additional observations from a re-analysis of the deposited data

How the results depend on the processing

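Against tissue, 3 members passed in TFC-like cells. The number was 7 with equal weights, 1 with cells of at least 2000 UMIs, 1 with thinned cells and 2 to 6 when 1 sample was left out (6 without either tissue replicate, 2 without early TFCO replicate 1). Of all genes 718 passed, and 1080 did with a pseudocount of 0.1, 1184 with a mean of at least 0.5, 206 with UMIs summed, 4173 with equal weights, 243 with cells of at least 2000 UMIs, 419 with thinned cells and 354 to 5332 with 1 sample left out (354 without early TFCO replicate 1, 5332 and 5318 without tissue replicate 1 or 2). With each sample centred on its median gene, which lay 0.11 higher in TFCOs on the log2 scale, 194 genes were higher and 642 lower, against 405 and 313. Between late and early TFCOs 2 genes passed, and 4 did with a pseudocount of 0.1, 1 under 7 other settings and 1 to 1078 with 1 sample left out (1078 without early TFCO replicate 1, where the early group is 1 sample assumed to vary like the others). No member passed there under any of them. The sign turned for Vegfb against tissue with UMIs summed (-0.12), centring (-0.11), cells of at least 500 UMIs (-0.041) or 2000 UMIs (-0.017) and over -0.071 to 0.086 with 1 sample left out. Between late and early TFCOs it turned with thinned cells for Vegfb (-0.034) and Plvap (0.059), and with 1 sample left out for Kdr (-0.014 to 0.17) and Nrp1 (-0.073 to 0.34). The Vegfa share kept a difference of 49.5 to 56.6 percentage points with 1 sample left out, where the exact permutation p cannot go below 0.0667 or 0.167. Counting cells with at least 2 UMIs turned the difference in share for Vegfc (-0.0967 points), Flt1 (5.88) and Flt4 (-1.45). The Flt4 difference was -1.66 with cells of at least 2000 UMIs and -1.48 to 4.77 with 1 sample left out, and that of Nrp2 was -8.07 with thinned cells. A barcode correlation above 0.1 was found for 3 members in TFCO cells (11.2% of all genes), for 1 in tissue cells (17.3%) and for 1 with values set to detected or not (5.77%). The causes of these changes were not tested. In the tissue 7 members were highest in endothelial-like cells under all 8 alternatives run. No paired analysis was possible because replicate numbers only name samples within a group and tie none across groups. Tissue rests on 2 samples and 95 shallow TFC-like cells, which limits what can be said of rare transcripts there.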
